A study of Mus musculus with 8 samples.

Results

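This report describes 10 genes for RNA-binding proteins best known from neurons, as measured in gonadotropes sorted from the mouse pituitary gland. They are the genes of the ELAVL (Hu) proteins, *Elavl1*, *Elavl2*, *Elavl3* and *Elavl4*, of the NOVA proteins, *Nova1* and *Nova2*, of the RBFOX proteins, *Rbfox1*, *Rbfox2* and *Rbfox3*, and *Celf4*. They were picked by symbol from the 55523 entries of the deposited count table, where each had 1 entry. The rule names symbols and sets no threshold on a measured value, but the family was put together with earlier results of these data known. The values below are therefore a description of these genes, and the choice of the family supports nothing. The cells were sorted for EGFP from the Ad4BP-BAC-EGFP mouse, whose transgene carries EGFP on a bacterial artificial chromosome of the *Nr5a1* (Ad4BP) gene. RNA was sequenced from 4 female and 4 male samples, all with this transgene and with no treatment named, and neither the age of the mice nor the number pooled per sample is given in the sources used here. Male 1, which the study set aside, is shown apart.

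ELAVL proteins bind U-rich stretches of pre-mRNA and of mRNA 3′ ends, where they influence splicing and keep messages stable. *Elavl1* (HuR) is found in most cells, whereas *Elavl2*, *Elavl3* and *Elavl4* are the neuronal members and serve as early neuronal markers. NOVA proteins bind clusters of YCAY, and RBFOX proteins bind UGCAUG, and both set the choice of alternative exons of synaptic and channel genes according to where they bind. *Rbfox3* encodes NeuN, a marker of mature neurons, *Rbfox2* is the widely expressed member, and CELF4 binds 3′ untranslated regions of neuronal mRNAs. Endocrine cells of the pituitary are excitable and secrete by regulated exocytosis, and share part of their gene expression with neurons. The files hold counts per gene, so splicing itself was not measured.

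The total count was between 18774578 and 31302588 per sample. Levels are given as CPM, counts per 1000000 after TMM scaling (edgeR's trimmed mean of M values) of all 8 libraries, and the floor of 3 counts corresponded to between 0.0921 and 0.146 CPM. This floor covers counting error only. All 10 genes were above it in every sample, with the lowest at 34 counts. Gonadotrope markers were present in each sample, with *Lhb* between 4139 and 9610 CPM, but hormones of other pituitary cells were too. *Gh* was between 12394 and 142244 CPM. Of the 10 nerve cell markers, *Slc32a1*, *Gad1*, *Avp* and *Oxt* were at most 2.41 CPM and *Slc17a7* at most 3.55 CPM, whereas the neurofilament genes *Nefl*, *Nefm* and *Nefh* were at least 47.4 CPM in each sample. Male 1 had 16.3 CPM of *Nr5a1*, against 584 to 1266 CPM in the other 7 samples, and 11.1% of its counts came from *Malat1*, where the others had 0.706% to 1.59%. In these bulk samples, fewer cells of a type cannot be told apart from less RNA per cell.

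Sequences of 9 of the genes were compared within families, because reads from near-identical copies could be divided between them. In the coding sequences of GENCODE M21 (GRCm38), the longest identical runs were short, and 3 are shown, the longest of each family. The first lies in exon 7 of 7 of *Elavl3* (chr9:22018600-22018628, minus strand) and in exon 7 of 7 of *Elavl4* (chr4:110206429-110206457, minus strand). The NOVA run lies in exon 2 of both *Nova1* (chr12:46816906-46816919, minus strand) and *Nova2* (chr7:18942326-18942339, plus strand). The RBFOX run crosses the junction of exons 5 and 6 of *Rbfox1* on chromosome 16 and that of exons 6 and 7 of *Rbfox2* on chromosome 15.
Elavl3 and Elavl4: ttcggcttcgtcaccatgaccaactacga
Nova1 and Nova2: atcaagctgtctaa
Rbfox1 and Rbfox2: accgtggtagagggccgtaaaatcgaggt

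The ELAVL and RBFOX runs shown are 29 bases long and the NOVA run is 14 bases long. The other pairs of ELAVL genes shared between 17 and 23 bases at most. How the counting treated reads that fit both copies of a run was not tested.

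Of the 10 genes, *Elavl3* differed most between the sexes, and it was higher in females. It was 59.0, 90.6, 82.0 and 72.1 CPM in female replicates 1 to 4 and 8.90, 12.005 and 10.5 CPM in males 2, 3 and 4. Every female was above each of these males, and male 1, at 35.3 CPM, lay between the groups. The means were 75.9 ± 13.6 CPM (SD, n = 4) for females and 10.5 ± 1.55 CPM (SD, n = 3) for males, a 7.25-fold difference. On the log2 scale males minus females came to −2.89 (SE, standard error, 0.22). The edgeR quasi-likelihood test gave an adjusted p = 0.00609 over the 20152 genes tested. A two-sided exact permutation test of mean log2(CPM + 1) over the 35 splits gave p = 0.0286, the smallest that 3 samples against 4 allow. Of all genes tested, 2.34% passed the threshold of 0.05 on the adjusted p, 1.35% as higher in females, and *Elavl3* was the 1 of the 10 genes that did. In a fit of all 8 samples its log2 fold change was −2.19 (edgeR adjusted p = 0.121). Leaving out any 1 of the 7 samples gave −2.99 to −2.77, at edgeR adjusted p values of 0.0102 to 0.0231.

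*Elavl3* lies on chromosome 9 from 22015005 to 22052023 (GRCm38, minus strand), and in the count table its assembled locus is shared with *Zfp653*, a zinc finger gene just upstream, and *Gm49318*. Reads could be divided between these entries. *Gm49318*, a transcript that spans parts of both genes, had 0 counts in the 8 samples. *Zfp653* was 22.9, 14.5, 9.05 and 17.3 CPM in the females and 9.496, 5.93 and 8.40 CPM in males 2 to 4, so the sexes overlapped, and male 1 was at 14.6 CPM. Its log2 fold change was −1.04 (SE 0.34, edgeR adjusted p = 0.160). *Elavl3* made up between 72.1% and 90.1% of the counts of the locus in females, between 48.4% and 66.9% in males 2 to 4, and 70.8% in male 1. With the counts of the locus summed, the log2 fold change was −2.35 (SE 0.15, edgeR adjusted p = 0.00305).

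The promoter of *Elavl3* is shown because this gene carries the difference between the sexes. The sequence gives the 250 bases before the RefSeq start of the gene on GRCm38.p6, chr9:22052024-22052273, 5′ to 3′ on the minus strand, with a TATAAA in capitals, from 33 to 28 bases before the start.
Elavl3: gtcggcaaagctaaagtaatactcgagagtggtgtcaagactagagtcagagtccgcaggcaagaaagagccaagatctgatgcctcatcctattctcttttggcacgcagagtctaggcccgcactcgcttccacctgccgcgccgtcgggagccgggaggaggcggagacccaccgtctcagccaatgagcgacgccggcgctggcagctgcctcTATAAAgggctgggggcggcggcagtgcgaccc

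Promoter windows of 300 bases, 250 before and 50 after the start, were matched for 8 of the 10 genes, in 17 windows, since some genes have several starts. No window was matched for *Rbfox2* or *Celf4*. The *Elavl3* window was 65.3% G and C with 29 CpG dinucleotides, against medians of 52.7% and 7 over the 32851 windows of all genes. The window of *Elavl1* had 70.0% and 39 CpG, that of *Nova2* 71.3% and 17, and those of *Elavl2* reached 72.3% and 27. TATAAA, a motif looked for after the sequence was seen, was present on either strand in 13.6% of all windows and, among the 17, in that of *Elavl3* alone. AAGGTCA, which NR5A1 binds (4.72% of all windows), and TTCAGCACC, the left part of the RE1 site bound by REST, a repressor of neuronal genes (0.371%), were in none of the 17 windows on either strand. These letters are thus not in these windows, which says nothing of the factors.

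**Figure D1:**
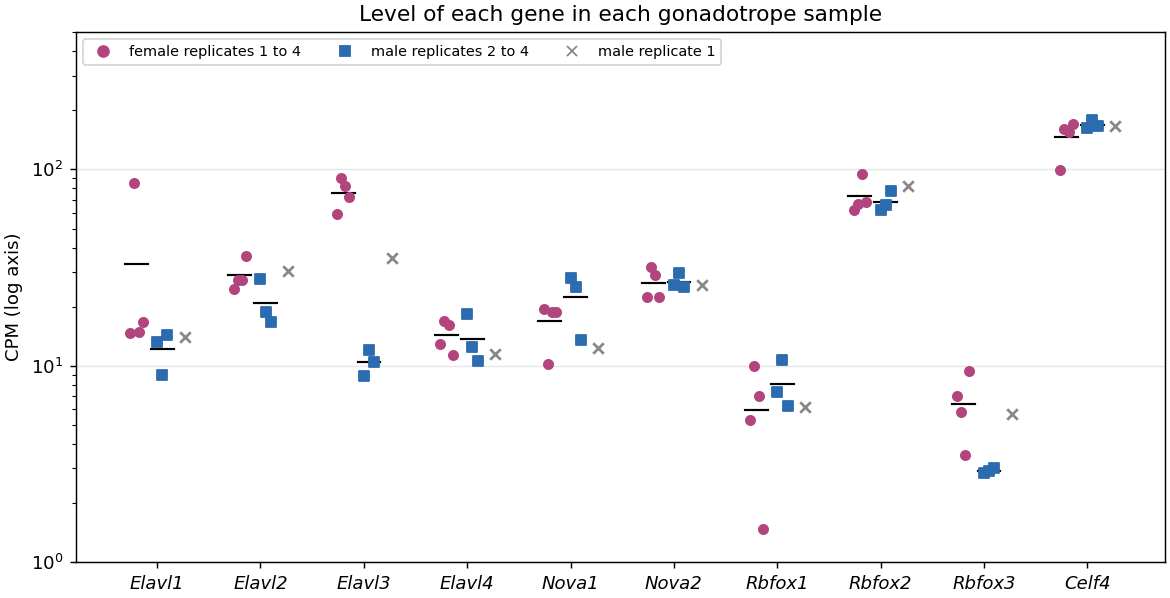
Level of each of the 10 genes in CPM (log axis) in each sample. Circles are female replicates 1 to 4, squares are males 2 to 4, crosses are male 1, and bars are group means. *Elavl3* has the 4 females between 59.0 and 90.6 CPM, males 2 to 4 between 8.90 and 12.005 CPM, and male 1 between them.

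The other neuronal ELAVL genes did not pass the threshold. *Elavl2* (chr4:91250763-91400785, minus strand) was 24.6, 27.4, 27.4 and 36.3 CPM in females and 27.5, 18.7 and 16.7 CPM in males 2 to 4, and the groups overlapped. Its log2 fold change was −0.50 (SE 0.23, edgeR adjusted p = 0.295). *Elavl4* (chr4:110203722-110351909, minus strand) was 12.8, 16.9, 16.05 and 11.4 CPM in females and 18.2, 12.5 and 10.5 CPM in males. The male range enclosed that of the females, and the log2 fold change was −0.09 (SE 0.25). Male 1 was at 30.3 CPM for *Elavl2* and 11.5 CPM for *Elavl4*.

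*Elavl1* (chr8:4285382-4325413, minus strand), the widely expressed member, was 85.2 CPM in female replicate 2, with 1747 counts, and 14.7, 14.9 and 16.6 CPM in the other females. Males 2 to 4 were at 13.3, 8.95 and 14.3 CPM and male 1 at 14.0 CPM. The sexes did not overlap, but by less than 1 CPM between the lowest female and the highest male. Its log2 fold change was −1.47 (SE 0.74, edgeR adjusted p = 0.330), and it was −0.34 without female replicate 2. *Ccl25*, which overlaps the start of *Elavl1* on the other strand, was 11.5 CPM in that sample and between 8.21 and 12.1 CPM in the other 7. Such jumps were not rare in this table. Of the 10449 genes tested with a mean of at least 10 CPM, 15.1% differed at least 5-fold between samples of 1 sex after 0.5 CPM was added, and *Elavl1* was 1 of the 8 members at that level. The cause of these jumps was not tested.

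Between genes, levels were compared as CPM per kb of exon, with the exonic length of each gene from GENCODE M21. Which transcripts were counted under a symbol is not given in the sources used here, so this length is an assumption in every level per kb, family share and order given here. Within the ELAVL family, *Elavl3* led in females, with 11.02 ± 1.97 CPM per kb (SD, n = 4). In males 2 to 4 it was 1.52 ± 0.23 CPM per kb (SD, n = 3), below *Elavl4* at 2.55 ± 0.74 and *Elavl2* at 2.52 ± 0.70 CPM per kb. As a share of the 4 genes, *Elavl3* was 47.3% to 60.7% in females, 13.9% to 24.3% in these males and 41.8% in male 1. *Elavl4* made up 11.3% to 15.5% in females, 28.5% to 36.5% in these males and 17.4% in male 1, and *Elavl2* 11.8% to 23.5%, 29.2% to 35.7% and 29.7%. The ranges of the sexes did not overlap for any of the 3 neuronal members, and since shares add up to the whole, those of *Elavl2* and *Elavl4* move with *Elavl3*. With the length of the longest coding transcript in place of the exonic length, *Elavl3* was 41.5% to 55.7% in females and 11.8% to 21.0% in males.

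**Figure D2:**
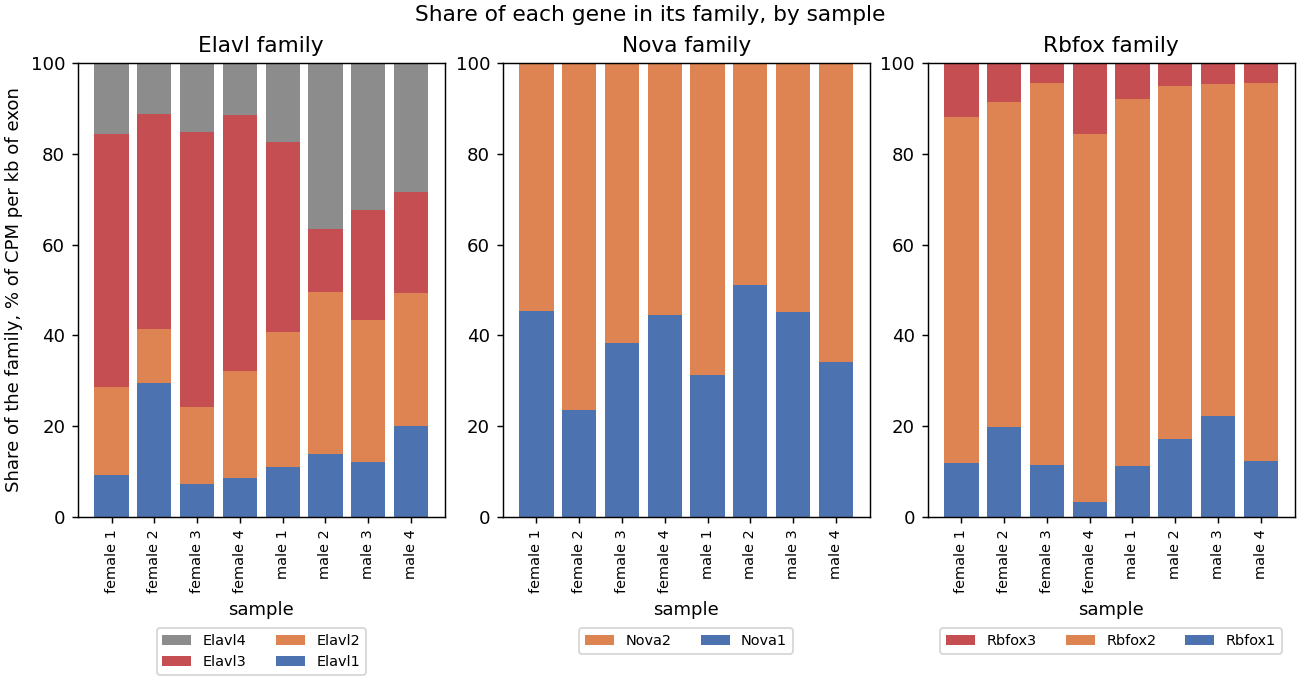
Share of each gene in its family, in % of CPM per kb of exon, in each sample, for the ELAVL, NOVA and RBFOX genes. *Elavl3* takes 47.3% to 60.7% of its family in females and 13.9% to 24.3% in males 2 to 4, whereas *Rbfox2* takes at least 71.6% of its family in every sample.

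*Celf4*, which binds neuronal mRNAs and influences their stability and translation, had the highest level of the 10 genes per kb of exon in both sexes. It was 99.3, 162, 155 and 169.5 CPM in females, 162, 179 and 166 CPM in males 2 to 4 and 166 CPM in male 1. Female 1 was the lowest, and the other 7 samples lay between 155 and 179 CPM. Per kb, the gene was at 17.1 ± 3.73 CPM for females (SD, n = 4) and 19.7 ± 1.05 CPM for males (SD, n = 3). Its log2 fold change was 0.17 (SE 0.20, edgeR adjusted p = 0.710). The gene lies on chromosome 18 from 25477632 to 25754157 (minus strand).

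Among the RBFOX genes, *Rbfox2* led in each sample. The gene (chr15:77078990-77307004, minus strand) was 62.1, 67.0, 95.1 and 68.4 CPM in females, 62.1, 65.5 and 77.7 CPM in males 2 to 4 and 82.2 CPM in male 1, so the sexes overlapped. Per kb the females had 8.99 ± 1.83 CPM (SD, n = 4), the males 8.41 ± 1.01 CPM (SD, n = 3). Its log2 fold change was −0.13 (SE 0.19).

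*Rbfox3* (chr11:118489762-118911597, minus strand), the NeuN gene, was low, at 6.97, 5.80, 3.50 and 9.38 CPM in females and 2.84, 2.91 and 2.997 CPM in males 2 to 4, with 66 to 217 counts. Each female was above each of these males, and male 1, at 5.68 CPM, lay inside the female range. The log2 fold change was −1.17 (SE 0.35, edgeR adjusted p = 0.127), and the two-sided exact permutation test gave p = 0.0571. It passed the threshold only with DESeq2, with an adjusted p of 0.0433, while over the other alternatives the adjusted p ranged up to 0.506.

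*Rbfox1* spans 1526172 bp on chromosome 16 but had few counts. It was 5.26, 9.9999, 7.03 and 1.47 CPM in females and 7.37, 10.7 and 6.22 CPM in males 2 to 4, and male 1 was at 6.16 CPM. Female replicate 4, with 34 counts, was the lowest of all samples, and the sexes overlapped. The log2 fold change was 0.41 (SE 0.56).

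Neither NOVA gene passed the threshold. *Nova2* (chr7:18925888-18965319, plus strand) was 22.3, 32.0, 28.8 and 22.5 CPM in females and 25.7, 29.5 and 25.2 CPM in males 2 to 4, with 25.8 CPM in male 1. The male values lay within the female range, and the log2 fold change was −0.01 (SE 0.19). *Nova1* (chr12:46694517-46818929, minus strand) was 19.4, 10.2, 18.7 and 18.8 CPM in females and 28.0, 25.3 and 13.6 CPM in males, with 12.3 CPM in male 1. The groups overlapped, and its log2 fold change was 0.38 (SE 0.32, edgeR adjusted p = 0.591). *Nova1* shares its assembled locus with *Gm33869*, which lies inside it.

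In the order of levels per kb of exon, *Celf4*, *Elavl3* and *Rbfox2* came first in females, and the ranges of neighbours in that order overlapped. *Rbfox2* was above the next gene, *Elavl2*, in each female. In males 2 to 4 the order was *Celf4*, then *Rbfox2*, then *Nova2*, without overlap between them, and the genes from *Nova2* down to *Elavl1* overlapped with their neighbours. *Rbfox3* was the lowest in both sexes, without overlap in males. With the longest coding transcript as the length, *Celf4* and *Elavl3* no longer overlapped in females, *Rbfox1* came last there, and *Elavl2* took the place of *Nova2* below *Rbfox2* in males.

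For 3 of the 10 genes the ranges of the sexes were separate, *Elavl1*, *Elavl3* and *Rbfox3*, each higher in females, while 22.3% of all genes tested were separate, 10.8% as higher in females. The log2 fold change was below 0 for 7 genes and above 0 for 3, beside 52.1% below 0 over all genes tested. The median was −0.11 for the 10 genes and −0.03 over all genes tested. The direction of *Celf4*, *Elavl4*, *Nova2* and *Rbfox2* turned under at least 1 alternative.

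Other RNA-binding and splicing genes, with REST and its corepressors, were examined as 7 lists of 85 genes, of which 83 were tested. Of these, 1 passed the threshold, beside 2.34% of all genes tested. It was *Msi1*, which encodes the RNA-binding protein Musashi-1 of neural progenitors. It was 69.6, 60.0, 52.0 and 76.7 CPM in females, 33.1, 32.4 and 30.4 CPM in males 2 to 4 and 57.6 CPM in male 1. Every female was above every male of the fit, and male 1 was inside the female range. The log2 fold change was −1.05 (SE 0.18, edgeR adjusted p = 0.0402). Leaving out any 1 sample gave edgeR adjusted p values of 0.0480 to 0.138, and of these 7 fits it passed in the one without female replicate 3.

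*Msi1* belongs to a list of 10 other splicing regulators known for high levels in brain, whose median log2 fold change was −0.63, with 6 genes below 0 and 4 above. In this list *Celf2* was 88.9 CPM in male replicate 2 and 78.2 CPM in male replicate 4, and at most 5.05 CPM in the other 6 samples. *Ptbp2*, the neuronal polypyrimidine tract-binding protein, was 35.3 CPM in male replicate 2 and at most 9.39 CPM elsewhere. These 2 genes, and *Rest*, *Ptbp1* and *Srsf1* among the other lists, were named after their values were seen.

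None passed the threshold among 12 splicing regulators of most tissues (median 0.13), 3 epithelial regulators (−0.10), 12 tested SR proteins (−0.00), 25 hnRNP proteins (−0.27), 17 tested regulators of mRNA stability and translation (−0.02) and 4 genes of REST and its corepressors (−0.23). The genes with the highest mean level in these lists were *Mbnl2*, *Rbm47*, *Srsf2*, *Hnrnpk*, *Zfp36* and *Rcor1*, and their log2 fold changes were −0.62, 0.62, −0.17, 0.83, 0.16 and 0.39. None of these passed the threshold, and that of *Mbnl2* was −1.37 without male replicate 3 and −0.29 without male replicate 4. *Rest* itself was between 11.9 and 26.99 CPM. *Ptbp1*, which is known to hold back neuronal splicing outside neurons, was 2.18 CPM in female 1 and 3.06 CPM in male 1, and between 141 and 190 CPM in the other 6 samples. *Srsf1*, an SR protein that cells in general use, is listed at 0 in all 8 samples. Of the 72 genes of these lists with a mean of at least 10 CPM, 27.8% differed at least 5-fold within a sex, beside 15.1% of all genes tested at that level.

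**Figure D3:**
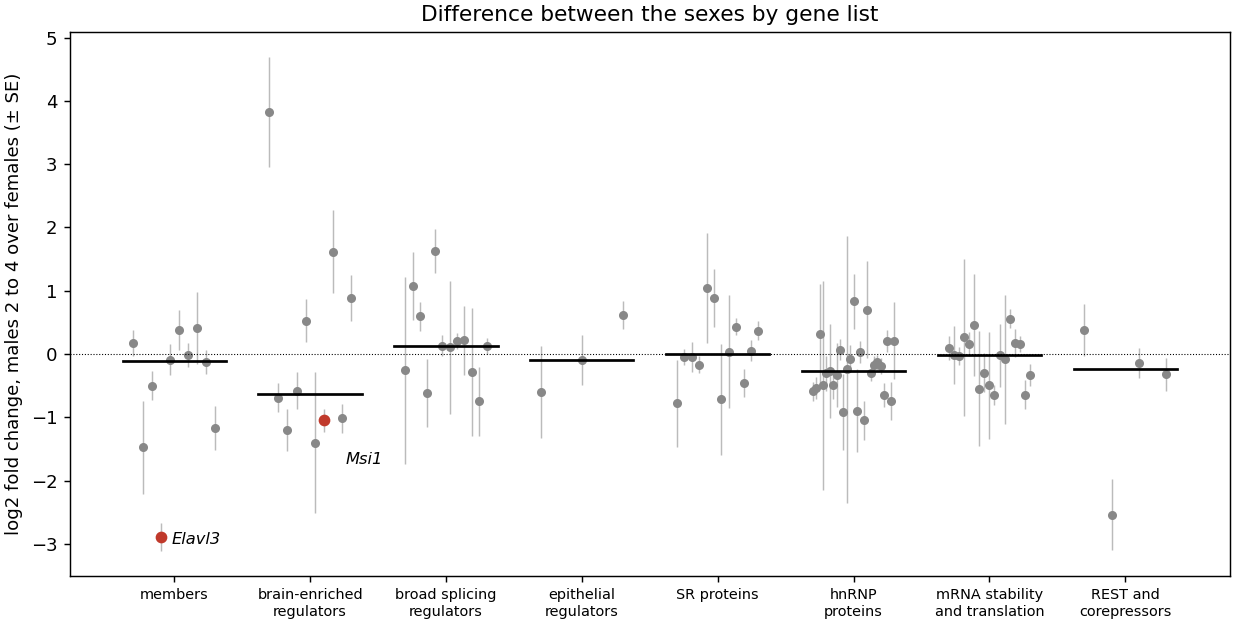
Log2 fold change of males 2 to 4 over females, with its standard error. The 10 genes (members) are shown beside the 7 other lists, which include REST and its corepressors. Red points passed the threshold, and bars are medians. *Elavl3* (−2.89) and *Msi1* (−1.05) are the only red points.

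Of the 12 lists of cell type markers, 5 had summed levels that did not overlap between the sexes, and these are given with the nerve cell and glia lists. No such share was computed for sums of other genes, while 22.3% of single genes tested were separate. A sum mostly follows its most abundant genes, such as *Sox9* or *Gh*. In these 5 lists *S100b*, *Ghrhr*, *Lhb*, *Cga*, *Gnrhr* and *Pdgfrb* overlapped between the sexes. The 3 stem cell markers, *Sox2*, *Sox9* and *S100b*, summed to between 244 and 383 CPM in females, 138 to 173 CPM in males 2 to 4 and 305 CPM in male 1. *Sox9* passed the threshold, with a log2 fold change of −1.02 (edgeR adjusted p = 0.0417), as did *Fshb*, which was higher in males. The gonadotrope markers, 5 genes, summed to between 21488 and 34863 CPM in females, 67930 to 75717 CPM in these males and 28423 CPM in male 1, with *Cga* and *Fshb* the most abundant in these males. *Nr5a1*, the gene behind the EGFP sort, went the other way, from 862 to 1266 CPM in females and from 584 to 801 CPM in these males without overlap, with a log2 fold change of −0.61 (SE 0.18, edgeR adjusted p = 0.130). The 10 nerve cell markers summed to between 338 and 508 CPM in females, 270 to 407 CPM in these males and 234 CPM in male 1, and 1 of the 8 tested, *Gad2*, passed. It was 25.0 to 50.6 CPM in females, 8.53 to 13.4 CPM in these males and 6.85 CPM in male 1, with a log2 fold change of −1.78 (edgeR adjusted p = 0.0402). In this list 5 of the 8 genes were below 0 and 3 above. *Camk2a* was 4.97 to 10.1 CPM in females, 0.831 to 2.27 CPM in these males and 8.64 CPM in male 1, with a log2 fold change of −2.18 (edgeR adjusted p = 0.0628). *Gad1*, at most 0.244 CPM in females and 0.630 to 1.91 CPM in these males, went the other way, and *Nefl* was 119 to 139 CPM in females and 118 to 231 CPM in these males. The 2 somatotrope markers, *Gh* and *Ghrhr*, summed to between 12397 and 57867 CPM in females, 65338 to 142305 CPM in these males and 30152 CPM in male 1. The 2 thyrotrope markers, *Tshb* and *Trhr*, summed to between 21.4 and 85.2 CPM in females, 238 to 345 CPM in these males and 83.6 CPM in male 1, and *Tshb* had a log2 fold change of 2.35 (edgeR adjusted p = 0.0525). The 5 stromal markers summed to between 37.7 and 61.6 CPM in females, 29.9 to 34.9 CPM in these males and 36.1 CPM in male 1, with log2 fold changes of −1.25 for *Col1a1* (edgeR adjusted p = 0.0945) and −1.45 for *Col3a1* (edgeR adjusted p = 0.0659). Of the 5, 3 were below 0 and 2, *Pdgfra* and *Lum*, were above 0 with overlap between the sexes. No thyrotrope, stromal or somatotrope marker passed the threshold. The 6 glia and pituicyte markers summed to between 49.3 and 64.0 CPM in females, 33.2 to 50.2 CPM in these males and 55.9 CPM in male 1, and *Olig2* was at 0 in all samples. *Aqp4* was 25.9 to 40.6 CPM in females, 14.7 to 25.3 CPM in these males and 18.6 CPM in male 1, with a log2 fold change of −0.73 (edgeR adjusted p = 0.176). With 1 sample left out, *Sox9* passed in none of the 7 fits, *Gad2* in the one without female replicate 2 and *Fshb* in the one without female replicate 4, with edgeR adjusted p values of up to 0.135, 0.132 and 0.135. The 3 nuclear long noncoding RNAs *Malat1*, *Neat1* and *Meg3* summed to between 12375 and 15535 CPM in females, 8062 to 10321 CPM in these males and 111307 CPM in male 1. The part of these cells and RNAs in the difference of *Elavl3* was not tested.

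The genes whose log2(CPM + 1) was most like that of the leading gene of each family were listed over the 7 samples of the fit. For *Elavl3* they were *Pygo2* (Pearson's r = 0.99) and *Atp7b* (r = 0.99), for *Nova2* they were *Stamos* (r = 0.98) and *Zswim9* (r = 0.98), for *Rbfox2* they were *Dynlt1a* (r = 0.96) and *Snora57* (r = 0.96), and for *Celf4* they were *Dsel* (r = 0.99) and *Hook2* (r = 0.99). *Atp7b*, a copper-transporting ATPase, was 26.99, 33.0, 40.7 and 25.9 CPM in females and 3.51, 4.19 and 3.22 CPM in males 2 to 4, with male 1 at 9.39 CPM. *Pygo2* was 38.7 to 42.7 CPM in females, 21.7 to 24.2 CPM in these males and 55.1 CPM in male 1, where it was above the females. *Dynlt1a* was 56.8 CPM in female 3 and at most 14.7 CPM in the other samples, and *Dsel* was 1.37 CPM in female 1 and at least 25.0 CPM in the others. The 2 genes of each family were picked as the highest of 20152, and the points share their libraries, so no p is given.

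**Figure D4:**
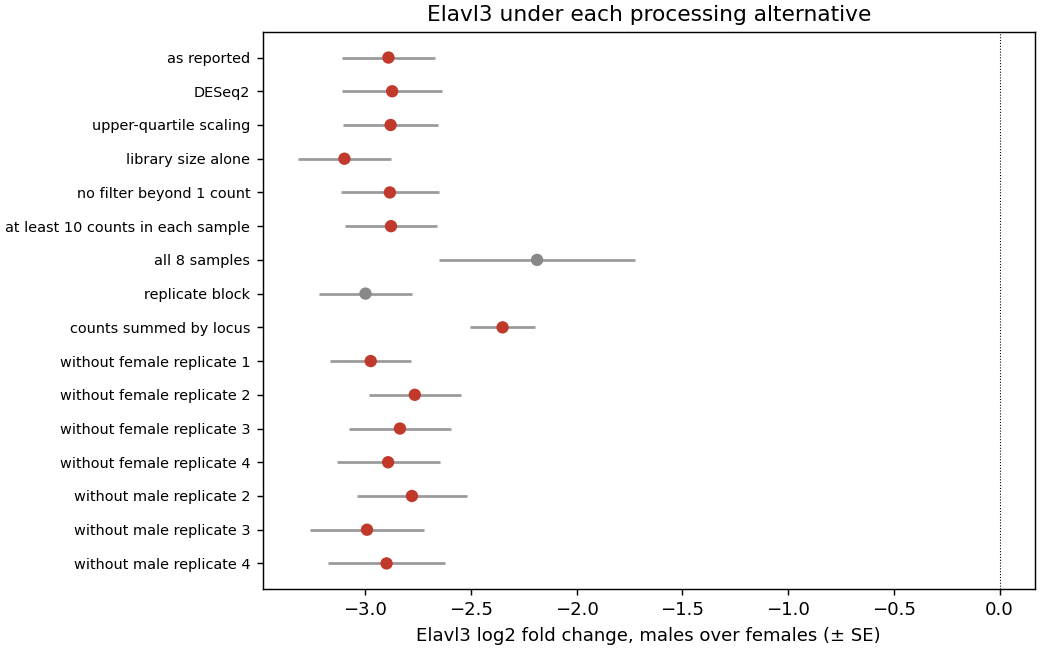
Log2 fold change of *Elavl3*, males over females, with its standard error, as reported and under each alternative. Red points passed the threshold and grey points did not. The values lie between −3.10 and −2.19, and the 2 grey points are the fit of all 8 samples and the replicate block.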

How the data were processed

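Gonadotropes were sorted as EGFP-positive cells, and libraries were made with a low-input kit. The authors deposited counts per gene without normalization. Their processing notes and methods name cutadapt, STAR, mm10 (GRCm38) and featureCounts. The annotation is not given in the sources used here, and locus names of the MSTRG form are those of StringTie assemblies.

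The 3 males 2 to 4 were set against the 4 females in edgeR 4.0.16 (R 4.3.3) by the quasi-likelihood test, with filterByExpr, TMM factors, Benjamini-Hochberg adjustment over the 20152 genes tested and a threshold of 0.05. The standard error is the absolute log2 fold change divided by the square root of F. The labels do not say whether samples came from separate animals, so p-values measure the spread between these samples, which may be technical. DESeq2 1.42.0 was an alternative, and the others are named in the closing section. Levels per kb used GENCODE M21 lengths, and the length of the longest coding transcript was added after the data were seen. Promoters are from RefSeq (GRCm38.p6). Exact permutation tests used scipy 1.17.1 in Python 3.11.15.

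The 10 genes and the lists were chosen with earlier results of these data known. Named genes were the 10 genes, the calls of each list (at most 4) and its gene of highest mean CPM, the 2 genes most like the leading gene of each family, and markers. Genes named outside this rule are said to be in the report, or neighbour a member.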

Additional observations from a re-analysis of the deposited data

Results flagged for a closer look

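In 10 of the 56 groups of 4 samples examined, 1 sample was flagged because its gap to the next took up most of the group's range. Such a gap can be small in CPM. In independent groups chance flags about 1 in 20, or 2.80 here. These groups share 8 libraries, some genes were picked after the data were seen, and male 1 had already been set aside. The 10 flags therefore cannot be read as more than chance gives. Male replicate 1 was that sample for *Elavl3* at 35.3 CPM (8.90 to 12.005 CPM in the other males), *Rbfox3* at 5.68 CPM (2.84 to 2.997 CPM), *Msi1* at 57.6 CPM (30.4 to 33.1 CPM) and *Malat1* at 110079 CPM (7790 to 9998 CPM). *Elavl1* was 85.2 CPM in female replicate 2 (14.7 to 16.6 CPM in the other females), and *Nova1* was 10.2 CPM in the same sample (18.7 to 19.4 CPM). *Mbnl2* was 148 CPM in female replicate 3 (387 to 416 CPM), and *Hnrnpk* was 137 CPM there (471 to 532 CPM). *Nova2* was 29.5 CPM in male replicate 3 (25.2 to 25.8 CPM). *Camk2a* was 10.1 CPM in female replicate 2 (4.97 to 5.47 CPM). No cause was tested for any of them.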

How the results depend on the processing

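Log2 fold changes were recomputed for 28 genes, the 10 genes, 9 others and, chosen after seeing the data, 9 markers. Of these values 354 kept their direction and their side of the threshold, 13 turned, 39 no longer passed and 13 newly passed. *Sox9*, *Gad2* and *Fshb* did not pass with no filter, with all 8 samples or with the block. The number of genes called, 471 of 20152 tested, was 2235 of 31224 with DESeq2. It was 808 of 20152 with library size alone. That setting moved the median of all genes to −0.24 and the share of calls higher in males from 42.0% to 16.5%. The number was 177 of 31480 with no filter beyond 1 count, 67 of 19587 with all 8 samples and 88 to 171 with a sample left out. With the replicate block no gene passed (0 calls, 2953 at an unadjusted p under 0.05), and *Elavl3* was −3.00 with an adjusted p of 0.196 from edgeR. The block spends part of the data on the replicate numbers, leaving less to estimate the spread. Female replicate 1 has no same-numbered male in that fit. Of the 10 genes, 2 passed with DESeq2, beside the 2235 of 31224 genes given above. With all 8 samples 0 passed, with the replicate block 0, and with each sample left out 1. Of the 83 genes tested in the other lists, REST and its corepressors among them, 11 passed with DESeq2 and 4 with library size alone. With no filter, all 8 samples or the block 0 passed, and 0 to 2 did with a sample left out. DESeq2 gave *Elavl1* neither a p nor an adjusted p. Directions turned for *Nova2* (0.00693 with DESeq2, 0.00254 with all 8 samples, −0.0784 to 0.122 with a sample left out), *Elavl4* (−0.34 to 0.0648 with a sample left out), *Rbfox2* (−0.24 to 0.0413 with a sample left out), *Celf4* (−0.0305) and *Zfp36* (−0.0554) with library size alone, and *Srsf2* (0.0686) and *Malat1* (1.38) with all 8 samples. The cause was not tested. Deviations from the group means correlated at −0.0267 to −0.00163 in the 3 same-numbered pairs and at −0.0310 to 0.0336 in the other pairs. The numbers were therefore not taken as pairs, but 3 pairs say little of whether samples were prepared together.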
